A study of Mus musculus with 6 samples.

Results

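The genes described here are those of the myoblast fusion machinery, 9 of the 24421 genes in the deposited count table, taken from a list of symbols. They were Tmem8c (myomaker), Gm7325 (myomixer), Cdh15, Cdh2, Jam2, Jam3, Dock1, Adam12 and Rac1, and all 9 passed the filter on low counts. RNA was sequenced from 3 constructs of engineered muscle that received the inflammatory cytokine TNF-alpha (tumour necrosis factor alpha) at 100 ng/mL for 72 h and from 3 constructs given the vehicle, phosphate-buffered saline, for the same time. All 6 constructs were built from C2C12, a single mouse myoblast line that forms myotubes in low serum, held between artificial tendons in a gel of type I collagen, and were differentiated in horse serum before treatment. The labels number the constructs as biological replicates 1 to 3 and do not say whether they came from separate cell batches, so the spread behind each p-value may be technical. Each library held 81713008 to 93533748 counts. On the second principal component (5.58% of the variance) vehicle library 3 and TNF-alpha library 2 stood apart from the other 4. The comparison asks which fusion genes differed after prolonged exposure of formed muscle constructs to TNF-alpha.

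Skeletal muscle fibres form when mononucleated myoblasts fuse into multinucleated myotubes. Cadherins and junctional adhesion molecules hold the partner cells together, DOCK1 with an ELMO partner activates the small GTPase RAC1 to build actin at the contact, and the muscle-specific membrane proteins myomaker and myomixer then merge the membranes, myomaker in mixing the outer lipid layers and myomixer in opening the pore. In mouse muscle both fusogens are made mainly while myoblasts differentiate and are switched off in mature fibres.

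Of the 9 genes, 5 fell with TNF-alpha (Tmem8c, Gm7325, Cdh15, Jam2 and Jam3), 1 rose (Rac1) and 3 did not pass the test (Cdh2, Dock1 and Adam12) (edgeR quasi-likelihood test, p-values adjusted by Benjamini-Hochberg over all tested genes, threshold 0.05). The surface adhesion genes Cdh15 and Jam2 moved most, and the fusogens moved by less. The 6 of 9 that passed (66.7%) are near the background, since 55.5% of all 15792 tested genes passed. By direction, 55.6% of the 9 genes fell, against 27.9% of all tested genes, and 11.1% rose, against 27.6%, shares that were set side by side without a test. The median log2 fold change was -0.59 over the 9 genes and 0.00 over all tested genes, whose quartiles were -0.36 and 0.36. The groups did not overlap for 6 of the 9 genes, and for 64.5% of all tested genes.

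**Figure D1:**
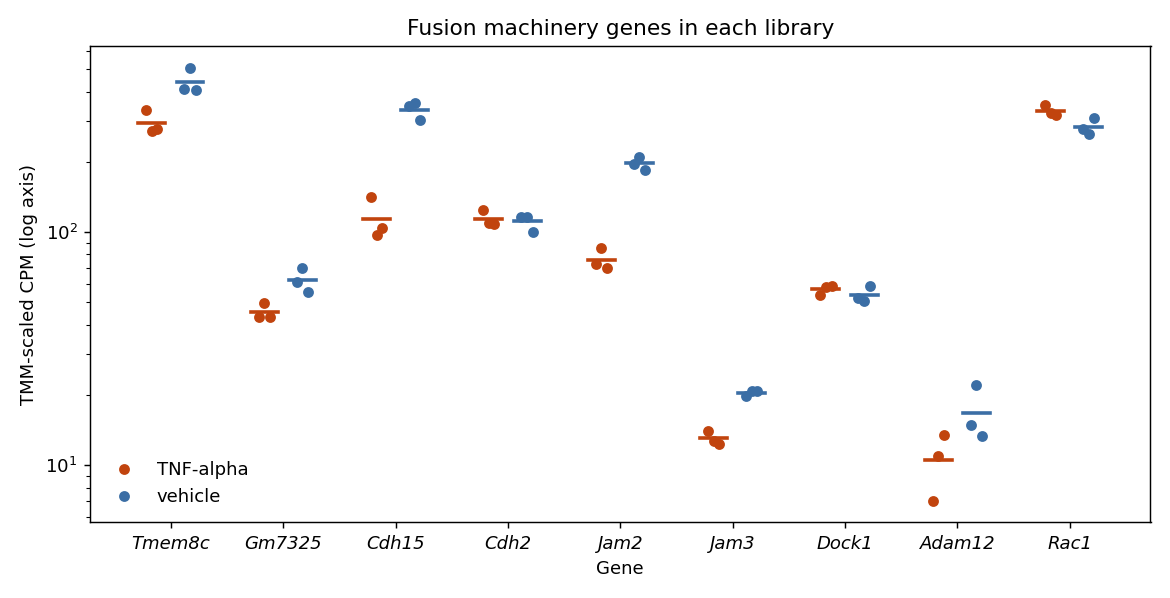
TMM-scaled CPM (counts scaled to library size, log axis) of the 9 fusion genes, with each point 1 library and each horizontal line the mean of 3 libraries, TNF-alpha left of vehicle. The groups are apart for Tmem8c, Gm7325, Cdh15, Jam2, Jam3 and Rac1 and overlap for Cdh2, Dock1 and Adam12.

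Both fusogen transcripts were lower in the TNF-alpha constructs. Tmem8c (annotated as Mymk, GRCm38 chromosome 2, 27061636 to 27072179, minus strand) encodes myomaker, the membrane protein that both fusing cells need. In TMM-scaled CPM, which are counts relative to library size, it had 333, 272 and 276 CPM in TNF-alpha libraries 1 to 3, against 409, 507 and 408 CPM in vehicle libraries 1 to 3. The lowest vehicle library was above the highest TNF-alpha library, and vehicle library 2 stood highest. Tmem8c averaged 294 ± 33.9 CPM with TNF-alpha and 441 ± 56.8 CPM with vehicle (SD, n = 3 each), a log2 fold change of -0.59 ± 0.11 SE (adjusted p = 0.00224, edgeR).

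Gm7325 (annotated as Mymx, chromosome 17, 45600971 to 45602102, minus strand) encodes myomixer, a micropeptide also called minion or myomerger. It had 43.2, 49.3 and 43.0 CPM in TNF-alpha libraries 1 to 3, against 60.7, 70.0 and 55.3 CPM in vehicle libraries 1 to 3. These groups did not overlap either, and vehicle library 2 was again the highest. The log2 fold change was -0.46 ± 0.10 SE (adjusted p = 0.00351, edgeR), from means of 45.2 ± 3.58 CPM with TNF-alpha and 62.0 ± 7.42 CPM with vehicle. The log2 ratio of Tmem8c to Gm7325 counts within a library averaged 2.70 ± 0.24 with TNF-alpha and 2.83 ± 0.07 with vehicle, and the groups overlapped (exact two-sided permutation p = 0.5, adjusted p = 0.6 over 6 ratios). With 3 libraries a group this test cannot give a p below 0.1, before or after adjustment. It therefore cannot show whether the fusogens fell by different amounts. Of the paralogs of myomaker, which are expressed widely and are not fusogens, Tmem8b rose (log2 fold change 0.70 ± 0.13, adjusted p = 0.00212). Tmem8 also passed (0.59 ± 0.19, adjusted p = 0.0288), but not without vehicle replicate 1, 2 or 3 or TNF-alpha replicate 1 or 3 (adjusted p = 0.0678, 0.0513, 0.0834, 0.0932 and 0.0917, within 0.00341 to 0.0932 over its alternatives). In bulk RNA, fewer cells of a type and less RNA per cell cannot be told apart, here and in every result that follows.

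The cadherins, calcium-dependent adhesion proteins that join like cells, diverged. Cdh15 (chromosome 8, 122847966 to 122867397, plus strand) encodes M-cadherin, the cadherin of myoblasts and satellite cells. It had 141, 96.7 and 104 CPM in TNF-alpha libraries 1 to 3, against 345, 356 and 303 CPM in vehicle libraries 1 to 3. The vehicle libraries were all far above the TNF-alpha libraries, of which library 1 was the highest. The mean was 114 ± 23.5 CPM with TNF-alpha and 335 ± 27.96 CPM with vehicle, 2.94-fold lower with TNF-alpha (log2 fold change -1.55 ± 0.15, adjusted p = 8.6e-05, edgeR).

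Cdh2 (chromosome 18, 16588877 to 16809246, minus strand) encodes N-cadherin, which is also found in nerve, heart and mesenchymal cells. It had 124, 109 and 108 CPM in TNF-alpha libraries 1 to 3, against 116, 116 and 100.2 CPM in vehicle libraries 1 to 3. The groups overlapped (log2 fold change 0.04 ± 0.08, adjusted p = 0.722), and the sign turned to -0.04 without vehicle replicate 3 and to -0.03 without TNF-alpha replicate 1. Cdh2 had decimal counts in 5 of 6 libraries, so its values are not sums of whole reads. Set against each other within a library, Cdh2 over Cdh15 had a log2 count ratio of -0.18, 0.17 and 0.05 in TNF-alpha libraries 1 to 3 and of -1.57, -1.61 and -1.60 in vehicle libraries 1 to 3. The ratio was 3.05-fold higher with TNF-alpha, with no overlap (two-sided exact permutation test, p = 0.1, the lowest value possible, adjusted p = 0.15 over 6 ratios). Corrected for exon length, Cdh15 made up 71.0% ± 2.55 of the sum of both cadherins with TNF-alpha and 88.2% ± 0.144 with vehicle, so it was still the more abundant of the pair.

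Of 7 tested classical and related cadherins, Cdh15 and Cdh2 included, 2 rose, 2 fell and 3 did not pass. Among all tested genes 27.6% rose and 27.9% fell. Cdh13, the membrane-anchored T-cadherin, rose (342 ± 27.5 CPM with TNF-alpha and 242 ± 19.2 CPM with vehicle, adjusted p = 0.00106). Cdh11 of mesenchymal cells rose by less (log2 fold change 0.28 ± 0.09, adjusted p = 0.0308) and epithelial Cdh1, at 1.18 ± 0.317 CPM with TNF-alpha and 2.21 ± 0.566 CPM with vehicle, fell (-0.90 ± 0.26, adjusted p = 0.0164). Without vehicle replicate 3 or TNF-alpha replicate 3 neither of these passed (adjusted p = 0.083 and 0.0781 for Cdh11, 0.0543 and 0.0581 for Cdh1), nor did Cdh11 without TNF-alpha replicate 2 (adjusted p = 0.0927). Over their alternatives the adjusted p ran from 0.0205 to 0.0927 for Cdh11 and from 0.00445 to 0.0581 for Cdh1.

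RefSeq promoters, from 250 bases before to 50 after the start, were at hand for Cdh15 and Dock1 alone among the 9 genes, and they are shown because the first fell and the second did not pass the test. Capitals mark each match to the E-box CANNTG, a general pattern that reads the same on both strands. It includes, but is wider than, the letters that myogenic factors such as MyoD and myogenin bind. The windows are GRCm38.p6 chr8:122848124-122848423 for Cdh15 and chr7:134670437-134670736 for Dock1, both on the plus strand and written 5′ to 3′.
Cdh15: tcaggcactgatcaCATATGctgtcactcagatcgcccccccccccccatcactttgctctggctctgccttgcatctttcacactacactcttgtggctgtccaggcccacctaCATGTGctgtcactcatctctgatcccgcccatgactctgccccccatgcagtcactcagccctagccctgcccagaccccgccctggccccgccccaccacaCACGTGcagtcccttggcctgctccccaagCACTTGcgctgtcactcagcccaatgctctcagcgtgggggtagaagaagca
Dock1: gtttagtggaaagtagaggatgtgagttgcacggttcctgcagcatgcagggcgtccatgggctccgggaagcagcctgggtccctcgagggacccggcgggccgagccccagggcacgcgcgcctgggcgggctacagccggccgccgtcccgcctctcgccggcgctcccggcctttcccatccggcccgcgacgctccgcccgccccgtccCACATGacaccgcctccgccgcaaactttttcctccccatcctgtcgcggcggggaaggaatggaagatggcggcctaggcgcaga
The Cdh15 window holds 4 matches, which begin 236, 135, 32 and 2 bases before the RefSeq start in that order, and the Dock1 window holds 1, which begins 36 bases before it. All of the Cdh15 window lies past the GENCODE start of that gene (122847966). Its matches are therefore upstream of the RefSeq start but inside the GENCODE gene. Of 32851 mouse promoter windows of the same length, 72.3% hold at least 1 match and 6.49% hold 4 or more. A match is a description of letters and not a bound site. Whether the matches have a part in the change of either gene was not tested. Neither window holds CAGCTG, which 16.3% of windows do. Neither holds CAGGTG or CACCTG, the same letters read on either strand, which 20.2% of windows do. Of the factors, Myod1 fell (51.3 ± 3.39 CPM with TNF-alpha and 98.8 ± 11.2 CPM with vehicle, adjusted p = 3.93e-05) and Myog rose (878 ± 24.9 CPM with TNF-alpha and 669 ± 57.3 CPM with vehicle, adjusted p = 0.00281).

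Both junctional adhesion molecules of the set fell. Jam2 (chromosome 16, 84774123 to 84825928, plus strand) encodes JAM-B, an immunoglobulin-type receptor whose zebrafish counterpart is needed, with JAM-C, for myocyte fusion. It had 72.6, 85.3 and 69.8 CPM in TNF-alpha libraries 1 to 3, against 196, 210 and 185 CPM in vehicle libraries 1 to 3. No TNF-alpha library came near the vehicle libraries. The level was 2.60-fold lower with TNF-alpha (log2 fold change -1.38 ± 0.09, adjusted p = 4.64e-06, edgeR), the smallest adjusted p among the 9 genes.

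Jam3 (chromosome 9, 27097384 to 27155421, minus strand) encodes JAM-C, the binding partner of JAM-B. It had 14.0, 12.6 and 12.3 CPM in TNF-alpha libraries 1 to 3, against 19.7, 20.7 and 20.7 CPM in vehicle libraries 1 to 3. The groups were apart, with a log2 fold change of -0.65 ± 0.08 (adjusted p = 1.97e-04). An antisense gene, Gm48796, overlaps Jam3 exons, and since the use of strand in counting is not given, reads of the pair cannot be told apart. Jam2 over Jam3 had a log2 count ratio of 2.54 ± 0.19 with TNF-alpha and 3.27 ± 0.10 with vehicle, lower in every TNF-alpha library (exact two-sided permutation p = 0.1, the smallest possible, adjusted p = 0.15). Per exon length, Jam3 made up 24.6% ± 2.47 of the pair with TNF-alpha and 16.4% ± 0.983 with vehicle. F11r, encoding JAM-A of epithelia, endothelia and platelets, rose (35.7 ± 5.22 CPM with TNF-alpha and 26.9 ± 0.383 CPM with vehicle, log2 fold change 0.41 ± 0.10, adjusted p = 0.00841). Of the 5 genes of the JAM family 1 rose, 3 fell and 1 did not pass, beside 27.6% risen and 27.9% fallen over all tested genes.

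Adam12 (chromosome 7, 133883199 to 134232146, minus strand) encodes meltrin alpha, a membrane-anchored metalloprotease and disintegrin named for its part in myoblast fusion. It was the lowest of the 9 genes and the most variable. Adam12 had 7.03, 10.9 and 13.4 CPM in TNF-alpha libraries 1 to 3, against 14.9, 22.1 and 13.3 CPM in vehicle libraries 1 to 3. TNF-alpha library 3 lay just above vehicle library 3, so the groups overlapped, and the coefficient of variation was 30.9% with TNF-alpha and 28.0% with vehicle, against at most 20.7% in a group for the other genes. The log2 fold change was -0.68 ± 0.28 (adjusted p = 0.0778, edgeR). The call depended on the method, since the adjusted p was 0.01 with DESeq2, 0.0433 with limma-voom and 0.0457 without TNF-alpha replicate 3 (log2 fold change -0.91), within 0.01 to 0.205 over its alternatives.

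Adam19, encoding meltrin beta, a related protease, fell (154 ± 25.8 CPM with TNF-alpha and 248 ± 35.5 CPM with vehicle, log2 fold change -0.69 ± 0.15, adjusted p = 0.00544). The log2 ratio of Adam12 to Adam19 counts was -3.92 ± 0.31 with TNF-alpha and -3.91 ± 0.47 with vehicle (exact permutation p = 1). Without 1 library the difference ran from -0.26 to 0.21. Of 7 tested membrane-anchored ADAM proteases, 3 rose, 2 fell and 2 did not pass, beside 27.6% risen and 27.9% fallen over all tested genes. Adam8, a protease of myeloid cells, rose 3.91-fold (adjusted p = 5.15e-06), and Adam17, which sheds TNF-alpha from the cell surface, rose by less (120 ± 5.48 CPM with TNF-alpha and 85.9 ± 2.23 CPM with vehicle, adjusted p = 1.6e-04).

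Inside the cell, the exchange factor gene Dock1 did not pass the test, its adaptor gene Elmo1 fell and its target Rac1 rose. Dock1 (chromosome 7, 134670654 to 135173639, plus strand) had 53.4, 58.1 and 58.5 CPM in TNF-alpha libraries 1 to 3, against 52.2, 50.7 and 58.4 CPM in vehicle libraries 1 to 3. The groups overlapped, with a log2 fold change of 0.08 ± 0.07 (adjusted p = 0.399, edgeR) that ran from 0.03 to 0.13 over its alternatives. Elmo1, 1 of 3 ELMO adaptors through which DOCK1 loads RAC1, had 1.99, 1.67 and 2.17 CPM in TNF-alpha libraries 1 to 3, against 34.9, 33.7 and 34.2 CPM in vehicle libraries 1 to 3. This was 17.6-fold lower with TNF-alpha (log2 fold change -4.14 ± 0.11, adjusted p = 4.27e-08, edgeR), although Elmo1 had decimal counts in all 6 libraries. Elmo2, chosen with Elmo3 after the values were seen, had 52.4 ± 2.11 CPM with TNF-alpha and 57.6 ± 1.32 CPM with vehicle (-0.14 ± 0.06, adjusted p = 0.0733), and it passed with upper-quartile scaling (-0.17, adjusted p = 0.0339, within 0.0339 to 0.179 over its alternatives). Elmo3 had 2.51 ± 0.243 CPM with TNF-alpha and 2.57 ± 0.249 CPM with vehicle (adjusted p = 0.866). Per exon length, Elmo2 was at 7.88 CPM per kb with TNF-alpha and 8.65 with vehicle, and Elmo1 at 0.155 with TNF-alpha and 2.72 with vehicle, so Elmo2 was the most abundant ELMO transcript in both groups.

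Dock5, a close paralog of Dock1 that also acts in mouse myoblast fusion, rose. It had 79.7, 115 and 109 CPM in TNF-alpha libraries 1 to 3, against 60.9, 66.6 and 63.9 CPM in vehicle libraries 1 to 3 (log2 fold change 0.67 ± 0.13, adjusted p = 0.00348). Dock1 over Dock5 had a log2 count ratio of -0.82 ± 0.22 with TNF-alpha and -0.25 ± 0.13 with vehicle, lower in every TNF-alpha library (exact two-sided permutation p = 0.1, adjusted p = 0.15). Per exon length, Dock5 made up 57.5% ± 3.67 of the pair with TNF-alpha and 47.7% ± 2.29 with vehicle. Over the 11 tested DOCK genes 4 rose, 5 fell and 2 did not pass, beside 27.6% risen and 27.9% fallen over all tested genes. The DOCK genes past the test numbered 9 in the main fit, 6 to 8 without 1 library and 7 under the stricter filter. Dock8 of lymphocytes rose to 12.6 ± 3.23 CPM with TNF-alpha, against 4.30 ± 0.173 CPM with vehicle (adjusted p = 1.3e-04), whereas Dock4 fell to 8.65 ± 1.70 CPM with TNF-alpha, against 14.9 ± 2.51 CPM with vehicle (adjusted p = 0.00477). Dock2 had 12, 3 and 4 counts in TNF-alpha libraries 1 to 3, against 30, 20 and 26 counts in vehicle libraries 1 to 3 (log2 fold change -1.97 ± 0.51, adjusted p = 0.0103). That fold change was -2.74 without TNF-alpha replicate 1, and the gene was not tested under the stricter filter.

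Rac1 (chromosome 5, 143503634 to 143528036, minus strand) encodes the actin-organising GTPase that DOCK1 activates. It had 352, 324 and 319 CPM in TNF-alpha libraries 1 to 3, against 277, 263 and 308 CPM in vehicle libraries 1 to 3. All TNF-alpha libraries were above all vehicle libraries, by a narrow margin over vehicle library 3. The rise was the smallest change that passed among the 9 genes (log2 fold change 0.23 ± 0.08, adjusted p = 0.0324, edgeR). It did not pass with upper-quartile scaling (adjusted p = 0.0616) or without vehicle replicate 1 or 2 or TNF-alpha replicate 1, 2 or 3 (adjusted p = 0.0938, 0.110, 0.0856, 0.0564 and 0.0568), within 0.0117 to 0.110 over its alternatives. Rac1 had decimal counts in 3 of 6 libraries, and its exons overlap those of Daglb on the opposite strand. Rac1 over Cdc42, another GTPase of the actin cytoskeleton, had a log2 count ratio of -0.28 ± 0.03 with TNF-alpha and -0.50 ± 0.07 with vehicle, higher in every TNF-alpha library (exact two-sided permutation p = 0.1, adjusted p = 0.15). Cdc42 itself had 401 ± 13.5 CPM with TNF-alpha and 398 ± 19.1 CPM with vehicle (adjusted p = 0.902). All 3 tested genes of the RAC subfamily rose, Rac1 with the limits above among them, beside 27.6% of all tested genes. Rhog, whose product recruits ELMO and DOCK1 to the membrane, rose by 0.87 ± 0.05 (adjusted p = 3.89e-06) and Rac3 by 1.54 ± 0.13 (adjusted p = 2.58e-05) on the log2 scale.

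**Figure D2:**
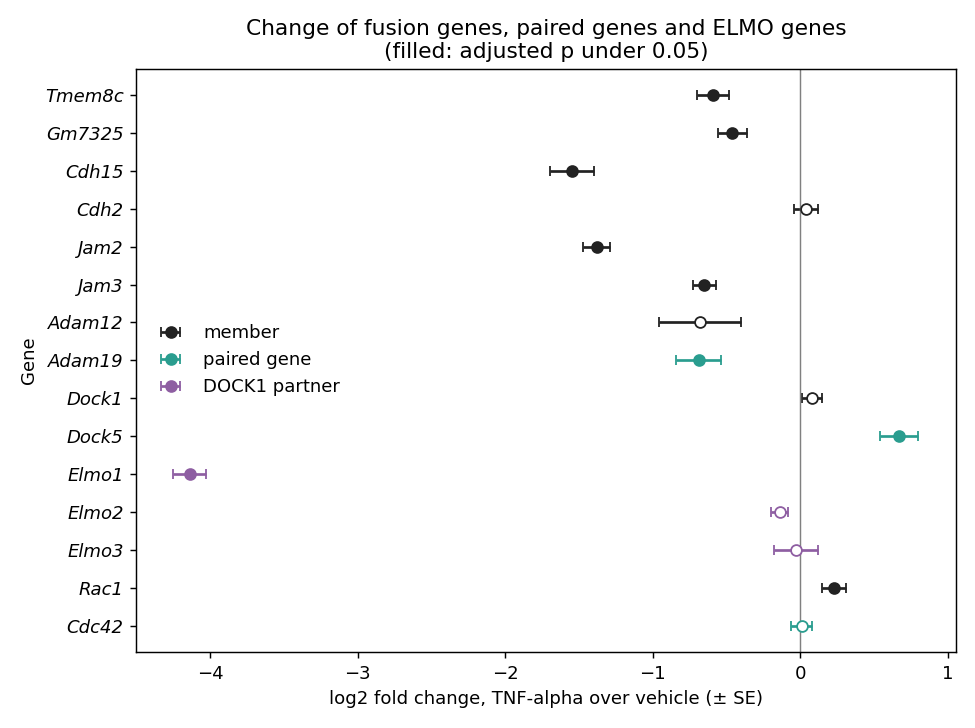
Log2 fold changes of TNF-alpha over vehicle with standard errors for the 9 fusion genes, the genes set against them in ratios and the ELMO adaptors of DOCK1, with filled points past the test and open points not. Elmo1 lies at -4.14, while Cdh2, Dock1, Elmo2, Elmo3 and Cdc42 lie within 0.14 of 0.

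Levels were compared between genes as CPM per kb of exon, with all exons annotated for a gene in GENCODE M21 merged. The transcripts expressed may be shorter than this, so close places in the order may depend on the choice of length. With TNF-alpha the order was Tmem8c (194 ± 22.5 CPM per kb), Rac1 (73.7 ± 3.95), Gm7325 (44.0 ± 3.49), Cdh15 (35.0 ± 7.24), Cdh2 (14.1 ± 1.11), Jam2 (12.6 ± 1.37), Dock1 (6.07 ± 0.301), Jam3 (4.06 ± 0.281) and Adam12 (0.989 ± 0.305). Of these neighbours, Gm7325 and Cdh15, and Cdh2 and Jam2, had overlapping ranges. With vehicle the order was Tmem8c (292 ± 37.6 CPM per kb), Cdh15 (103 ± 8.60), Rac1 (62.9 ± 5.15), Gm7325 (60.4 ± 7.22), Jam2 (32.6 ± 2.09), Cdh2 (13.7 ± 1.15), Jam3 (6.37 ± 0.174), Dock1 (5.76 ± 0.435) and Adam12 (1.59 ± 0.445). Here Rac1 and Gm7325, and Jam3 and Dock1, overlapped. Myomaker was thus the most abundant fusion transcript in both groups and meltrin alpha the least. M-cadherin stood next after myomaker with vehicle and below Rac1 and near myomixer with TNF-alpha.

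**Figure D3:**
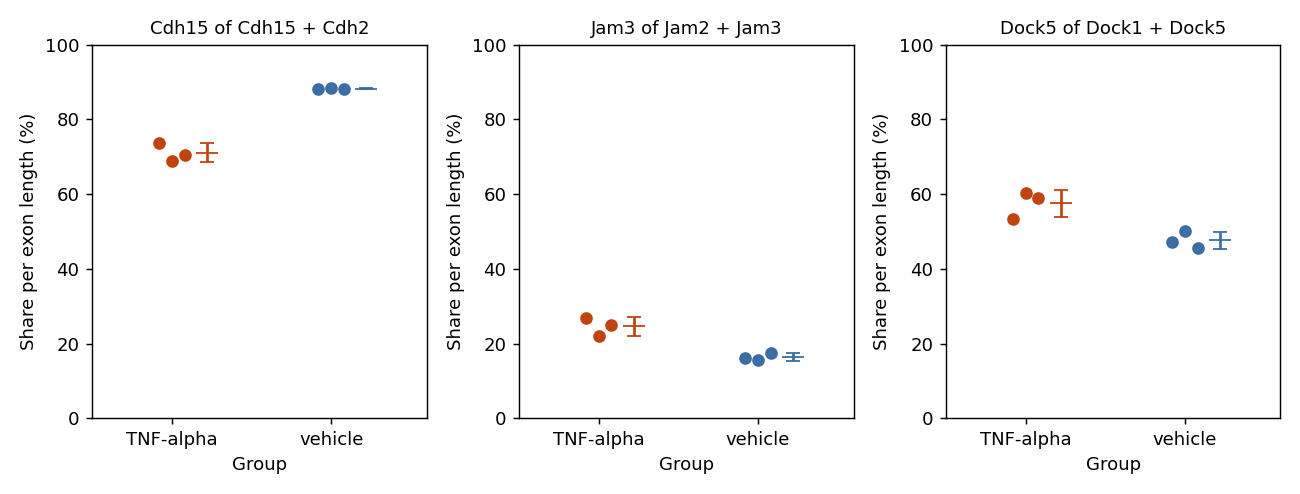
Share of the named gene in the summed level of a pair, per exon length (%), in each library, TNF-alpha left of vehicle, with the mean and SD of 3 libraries beside the points. Cdh15 averaged 71.0% with TNF-alpha and 88.2% with vehicle, Jam3 24.6% with TNF-alpha and 16.4% with vehicle, and Dock5 57.5% with TNF-alpha and 47.7% with vehicle.

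The wider fusion pathway and the gene families of the members were described with 12 lists. These held 127 genes besides the 9, 119 of them tested, and not all relatives in the family lists act in fusion. Of these 119 genes 39 rose (32.8%), 47 fell (39.5%) and 33 did not pass, with a median log2 fold change of -0.05. Over all tested genes 27.6% rose and 27.9% fell, and the shares of each list were set beside these without a test. Of 18 adhesion and recognition receptors 10 fell (55.6%), 3 rose (16.7%) and 5 did not pass, with a median of -0.55. Itga9, an integrin subunit, fell to 2.47 ± 0.180 CPM with TNF-alpha, against 9.63 ± 2.38 CPM with vehicle (adjusted p = 5.05e-05). Ncam1, the neural cell adhesion molecule of developing muscle, had a log2 fold change of -0.86 ± 0.09 (260 ± 10.8 CPM with TNF-alpha and 471 ± 52.2 CPM with vehicle, adjusted p = 6.06e-05). The receptors Cdon and Boc, which sit with cadherins at myoblast contacts, went opposite ways. Boc rose 3.43-fold (41.4 ± 4.07 CPM with TNF-alpha and 12.1 ± 1.14 CPM with vehicle, adjusted p = 2.14e-06), whereas Cdon, chosen after its values were seen, fell to 112 ± 21.4 CPM with TNF-alpha, against 357 ± 36.9 CPM with vehicle (adjusted p = 7.84e-05). Cd9, a tetraspanin of fusing cells, rose to 661 ± 57.6 CPM with TNF-alpha, against 333 ± 15.8 CPM with vehicle (adjusted p = 1.87e-05).

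Of the 8 adaptors that tie cadherins and JAMs to actin or polarity complexes, 6 fell and the other 2 did not pass (median -0.41). Jup, encoding plakoglobin, fell to 128 ± 3.83 CPM with TNF-alpha, against 337 ± 49.9 CPM with vehicle (log2 fold change -1.39 ± 0.10, adjusted p = 1.19e-05). Pard3, a polarity protein bound by JAM-C, fell by 0.46 ± 0.06 on the log2 scale, the scale of the changes that follow (adjusted p = 1.73e-04). Of 21 branched actin genes 7 rose (33.3%, near the share of all tested genes), 2 fell (9.52%) and 12 did not pass, with a median of 0.10. Actr3, a core subunit of the ARP2/3 complex, rose by 0.50 ± 0.06 (adjusted p = 2.07e-04), as did Abi1 of the WAVE complex (0.50 ± 0.05, adjusted p = 6.87e-05). The WAVE genes Wasf1 and Wasf2 fell (-0.46 ± 0.10 and -0.24 ± 0.07, adjusted p = 0.00335 and 0.0242). Wasf2 did not pass without vehicle replicate 2 or 3 or TNF-alpha replicate 1 (adjusted p = 0.0604, 0.0669 and 0.0567, within 0.0127 to 0.0669 over its alternatives).

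Among 16 tested exchange factors, GTPases and their regulators, 7 rose, 5 fell and 4 did not pass (median -0.01). Besides Elmo1 and Dock5, Ptk2, encoding focal adhesion kinase, rose by 0.31 ± 0.05 (adjusted p = 0.00104) and Iqsec1, an activator of ARF6, fell by 0.47 ± 0.07 (adjusted p = 4.54e-04). Of 15 membrane remodelling genes 5 rose and 7 fell (median -0.10). Ano5, an anoctamin of muscle membrane repair, fell to 9.06 ± 0.741 CPM with TNF-alpha, against 44.1 ± 7.74 CPM with vehicle (adjusted p = 4.57e-06), and Ehd2 fell by 0.87 ± 0.06 while its relative Ehd1 rose by 0.71 ± 0.08. Xkr8, a scramblase that exposes phosphatidylserine, rose by 0.69 ± 0.10 (adjusted p = 4.3e-04). Of 14 tested upstream regulators 4 rose and 8 fell (median -0.52). Fst, encoding follistatin, which promotes fusion by blocking myostatin and activins, fell to 53.0 ± 4.34 CPM with TNF-alpha, against 164 ± 22.8 CPM with vehicle (adjusted p = 7.95e-06). Il4ra, the receptor subunit through which interleukin 4 recruits myoblasts, rose 3.23-fold (adjusted p = 2.19e-06). Tgfbr1, a receptor of a pathway that restrains fusion, fell by 0.98 ± 0.07, and Mapk14, the p38 alpha kinase, rose by 0.70 ± 0.06 (adjusted p = 1.06e-05 and 2.97e-05).

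**Figure D4:**
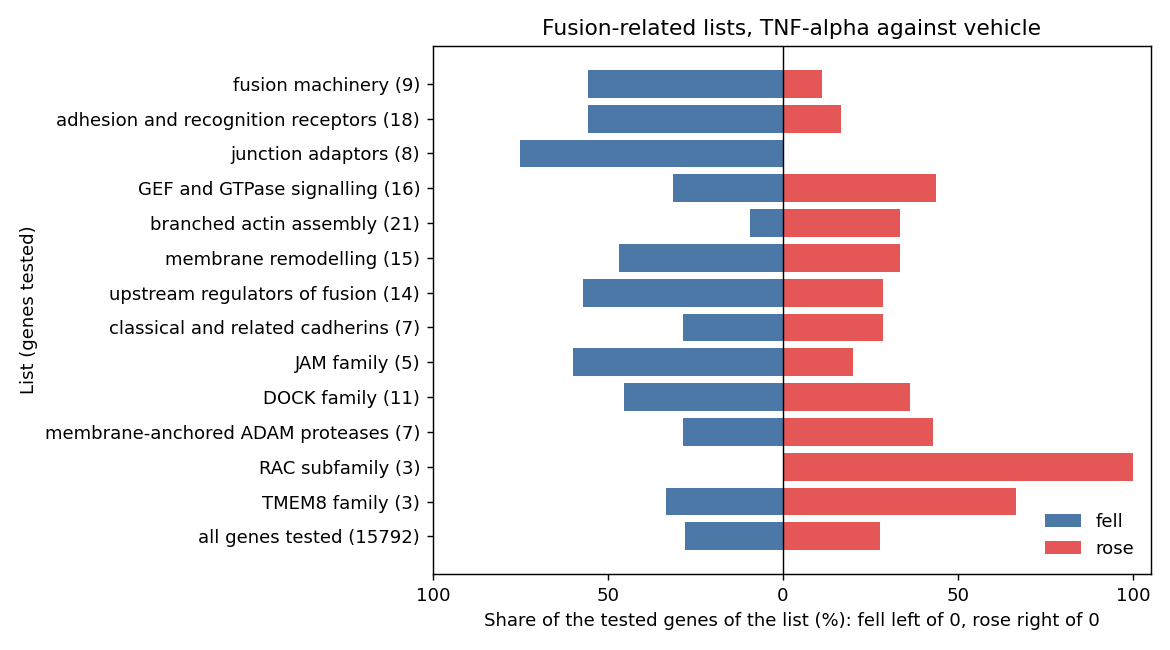
Share of tested genes that fell (left of 0) or rose (right of 0) with TNF-alpha in the 9 fusion genes, in the 12 pathway and family lists and over all tested genes, with the number tested in brackets. The family lists hold some of the 9 genes. Of the junction adaptors 6 of 8 fell, and of the branched actin genes 7 of 21 rose and 2 fell, beside 27.9% fallen and 27.6% risen over all genes.

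The labelled cell type was checked against marker lists, whose counts stand beside 27.9% fallen and 27.6% risen over all tested genes. Of 7 myotube genes 5 fell, 1 rose and 1 did not pass, with summed levels of 6839 to 7872 CPM with TNF-alpha and 11160 to 12790 CPM with vehicle. The muscle creatine kinase gene Ckm fell by 1.71 ± 0.07 and the embryonic myosin gene Myh3 by 2.45 ± 0.16 on the log2 scale. Myog was the 1 that rose, by 0.39 ± 0.08 (adjusted p = 0.00281, edgeR). Of 5 myoblast genes, Cdh15 among them, 4 fell and 1, Myf5, rose. Their sums were 2008 to 2103 CPM with TNF-alpha and 2480 to 2735 CPM with vehicle, mostly the desmin gene Des. Des, chosen after its values were seen, had 1863 ± 68.9 CPM with TNF-alpha and 2140 ± 113 CPM with vehicle. Its fall passed only narrowly (log2 fold change -0.20 ± 0.08, adjusted p = 0.0498, edgeR). The part of these shifts in the levels of the fusion genes was not tested. Of 6 macrophage genes 4 were tested and 3 rose, at sums of 88.9 to 105.2 CPM with TNF-alpha and 14.2 to 14.9 CPM with vehicle, mostly Cd14 and Cd68. The third was Csf1r, the receptor of a macrophage growth factor, chosen after its values were seen, with 110, 144 and 122 counts in TNF-alpha libraries 1 to 3, against 22, 20 and 24 counts in vehicle libraries 1 to 3 (adjusted p = 5.33e-05). Ptprc, the pan-leukocyte gene for CD45, had 0 counts in every TNF-alpha library and 2 to 4 counts in the vehicle libraries, and Adgre1 had at most 2 counts in any library. The part of macrophage genes in the results was not tested. The osteoclast fusion genes Dcstamp and Ocstamp had at most 6 counts, and their list summed to 0.61 to 0.859 CPM with TNF-alpha and 0.662 to 1.00 CPM with vehicle. Endothelial genes summed to 1.32 to 1.59 CPM with TNF-alpha and 2.49 to 3.63 CPM with vehicle (1 of 3 fell), and epithelial genes to 1.06 to 1.66 CPM with TNF-alpha and 1.91 to 3.12 CPM with vehicle (1 of 2 fell). Of the trophoblast list only Syna, the syncytin A fusogen of mouse placenta, was tested, and it rose to 1.14 ± 0.298 CPM with TNF-alpha, against 0.217 ± 0.162 CPM with vehicle (log2 fold change 2.37 ± 0.51, adjusted p = 0.00484). That fold change was 3.06 without vehicle replicate 2, and Syna was not tested under the stricter filter. Of 5 fibroblast genes, which C2C12 cells also express, 2 rose and 3 fell (sums of 6371 to 6685 CPM with TNF-alpha and 3209 to 3560 CPM with vehicle). The sum was mostly Dcn, at 6022 ± 200 CPM with TNF-alpha and 2029 ± 265 CPM with vehicle. Of the 3 that fell, Lum had 59.55 ± 5.12 CPM with TNF-alpha and 144 ± 19.1 CPM with vehicle. Col1a2 had 306 ± 63.6 CPM with TNF-alpha and 901 ± 54.7 CPM with vehicle.

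The patterns most like those of the fusogens were sought over the 6 libraries as the smallest root-mean-square difference between log2 CPM values, each gene centred on its own mean. For Tmem8c they were Rnf122 (0.049), Auts2 (0.053) and Rin3 (0.067), and for Gm7325 they were Zfp568 (0.049), Ndrg4 (0.050) and Nck1 (0.053). Tmem8c and Gm7325 were 0.160 apart from each other. Among all tested genes, Gm7325 ranked 549 in closeness to Tmem8c, and Tmem8c ranked 1276 in closeness to Gm7325. Of the other fusion genes the one closest to Tmem8c was Jam3, at 0.110 and rank 70. This measure is a description, and the 6 libraries share the group difference.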

How the data were processed

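Polyadenylated RNA of 3 TNF-alpha and 3 vehicle constructs was sequenced with a stranded, paired-end kit, per the labels. The authors deposited estimated counts per gene, of which 20.1% to 21.0% per library carry decimals. The submitters' processing notes name TopHat2 2.1.1, Bowtie2 2.3.5.1, featureCounts, Subread 2.0.0, DESeq2 and the build mm10 (GRCm38), without their roles. Strand use in counting is not given in the sources used here, so overlapping and antisense genes are uncertain.

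The deposited counts were rounded to whole numbers, filtered with filterByExpr (15792 of 24421 genes kept), scaled with TMM and tested with edgeR 4.0.16 in R 4.3.3 (robust quasi-likelihood fit, group as the only term, threshold 0.05). Standard errors come from the F statistic. Ratios used counts plus 0.5 and scipy 1.17.1. Positions and exon lengths come from GENCODE M21 on GRCm38, with all annotated exons of a gene merged. Replicates differed by more than sampling noise (chi-square per degree of freedom 22.0 to 66.9). The procedure was tested on simulated data in which 196 of 15636 genes were changed, far fewer than passed in the real data. There it recovered 68% of 1.5-fold and 94% of 2-fold changes, and 4.86% of its calls were false. The groups separated on the first principal component (83.0% of the variance).

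The members, the lists and the tests were chosen with earlier results of these data known. The text names the 9 members, up to 2 risen and 2 fallen genes per list with the smallest p, the genes paired in ratios and the 3 genes most like each fusogen, passing over predicted genes. The alternatives tried were scaling by RLE or by the upper quartile, a stricter filter and none, DESeq2 1.42.0, limma-voom (limma 3.58.1), no robust estimation, a replicate block and leaving out each library.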

Additional observations from a re-analysis of the deposited data

How the results depend on the processing

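The falls of Tmem8c, Gm7325, Cdh15, Jam2 and Jam3 passed under all 14 alternatives. With upper-quartile scaling the number of risen fusion genes was 0, since Rac1 (log2 fold change 0.20) no longer passed. Without 1 library that number ran from 0 to 1, and the Rac1 log2 fold change from 0.18 to 0.29. Adam12 passed with DESeq2 (-0.68) and limma-voom (-0.71), and ran from -0.91 to -0.43 without 1 library. Cdh2, not past the test, ran from -0.04 to 0.07. Its values were -0.04 without vehicle replicate 3 and -0.03 without TNF-alpha replicate 1. Cdc42, also not past the test, was -0.02 with upper-quartile scaling and without TNF-alpha replicate 1, and -0.03 without vehicle replicate 2, and ran up to 0.03 without 1 library. Elmo3, not past the test either, was 0.04 without vehicle replicate 2 and without TNF-alpha replicate 1, and ran from -0.10 to 0.04 without 1 library. The cadherin list had 2 to 4 genes past the test without 1 library. The cause of these changes was not tested. Dock2 and Syna could not be fitted under the stricter filter, which leaves them out. The rises of the marker genes Myf5 and Pdgfra were not past the test under 6 and 5 alternatives (adjusted p up to 0.127 and 0.074), and the block changed no other call among the named genes than that of Myf5 (adjusted p = 0.0864). Leaving out 1 library leaves fewer samples and a group of 2. Depth limits what can be said of Dock2, Syna and the marker genes near 0, which have few counts.

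Same-numbered TNF-alpha and vehicle libraries did not deviate together (correlations of 0.043, -0.045 and -0.114), so the numbers were not taken to pair the constructs. With the replicate number as a block 8486 genes passed, against 8769 without, and 6 fusion genes passed in both. Over all genes 7421 to 8459 passed without 1 library.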
